A study of Mus musculus with 8 samples.

Results

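The genes described here encode 8 transcription factors that direct effector differentiation of CD8 T cells: the T-box factors Tbx21 (T-bet) and Eomes, the zinc finger repressors Prdm1 (Blimp1) and Zeb2, the DNA-binding Runx factors Runx1, Runx2 and Runx3, and their shared partner Cbfb. They were taken by symbol from the 49315 genes of the count files, and all 8 were found and passed the filter on low counts. The RNA came from mouse OT-I cells, CD8 T cells whose transgenic receptor sees an ovalbumin peptide. They had been edited by CRISPR-Cas9 with a guide against Carm1 (4 Carm1-edited libraries, labelled Carm1 KO) or against the bacterial gene LacZ (4 control libraries, labelled Control KO and WT). Carm1 is an enzyme that methylates arginines of histones and coactivators. Per the labels' protocols, cells of both arms came from spleen and inguinal lymph nodes of OT-I mice as naive CD8 T cells, were kept in interleukin-7 (2.5 ng/ml) and interleukin-15 (50 ng/ml), carried the CD45.1 marker, and gave RNA 7 days after editing, with loss of Carm1 protein assessed by western blot. The series text speaks instead of culture beside ovalbumin-bearing B16F10 melanoma cells, and the sources used here do not settle which holds. The 4 libraries of an arm are called technical replicates, so p-values cover only the spread among these libraries, and an effect of the edit and a difference between the cell preparations cannot be told apart.

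T-bet and Eomes bind related DNA sites and turn on genes of cytotoxic function, such as those for interferon gamma, perforin and the interleukin-2 receptor beta chain that serves interleukin-15 signals. Blimp1 represses genes of the naive and memory state, and Zeb2 acts with T-bet in terminally differentiated effector cells. Runx proteins bind DNA as heterodimers with Cbfb, which itself does not contact DNA and stabilises the complex. Runx3 is the family member known for setting up the cytotoxic lineage, in which it silences Cd4 and Zbtb7b and sustains Cd8 genes.

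Runx genes are transcribed from a distal and a proximal promoter, and their distal promoters are known for carrying Runx-type sites. The 250 bases before the annotated RefSeq start (build GRCm38.p6, the assembly of mm10) are shown for the genes that moved together, Runx3, Runx1 and Runx2 among those that rose and Tbx21 and Eomes among those that fell. Windows stop where the deposited files annotate an exon, and for Runx2 only the match is shown with its flanks. Each is written 5′ to 3′ on the gene's strand, and capitals mark a match on either strand to the Runx core TGTGGT, which reads ACCACA on the opposite strand, or to the E-box of Zeb proteins. The E-box letters are CACCTG, which read CAGGTG on the opposite strand. The T-box letters TCACACC were searched too, and the 3 motifs did not overlap each other in these windows.
Runx3 distal: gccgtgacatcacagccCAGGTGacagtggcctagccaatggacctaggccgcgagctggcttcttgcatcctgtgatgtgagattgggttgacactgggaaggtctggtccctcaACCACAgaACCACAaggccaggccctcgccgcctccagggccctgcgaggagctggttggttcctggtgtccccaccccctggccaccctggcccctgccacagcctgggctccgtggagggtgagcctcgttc
Runx1 distal: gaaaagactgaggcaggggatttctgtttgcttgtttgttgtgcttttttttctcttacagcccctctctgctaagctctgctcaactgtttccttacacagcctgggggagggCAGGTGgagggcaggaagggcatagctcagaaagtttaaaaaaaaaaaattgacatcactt
Runx2 distal match: tgaggtcacaaACCACAtgattctgtct
Tbx21: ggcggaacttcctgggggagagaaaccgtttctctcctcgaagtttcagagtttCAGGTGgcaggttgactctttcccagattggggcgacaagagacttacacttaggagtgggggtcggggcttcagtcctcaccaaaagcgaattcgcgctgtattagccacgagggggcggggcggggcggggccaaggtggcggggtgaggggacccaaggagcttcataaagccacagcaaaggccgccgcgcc
Eomes: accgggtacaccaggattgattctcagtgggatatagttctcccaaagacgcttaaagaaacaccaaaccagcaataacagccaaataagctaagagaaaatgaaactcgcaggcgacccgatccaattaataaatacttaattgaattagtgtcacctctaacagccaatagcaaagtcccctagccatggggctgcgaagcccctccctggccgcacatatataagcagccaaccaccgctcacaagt
The Runx3 stretch lies at chr4:135120395-135120644 (plus strand), that of Runx1 at chr16:92826150-92826324 (minus), that of Tbx21 at chr11:97115332-97115581 (minus) and that of Eomes at chr9:118477939-118478188 (plus). The Runx3 window held the Runx letters in a pair, at 129 and 121 bases before the start, and the Runx2 window (minus strand) held them at 75 bases before the start (chr17:44814702-44814707), inside a stretch that the files annotate as exon. The Runx1 distal window held no Runx letters, nor did any other window of the 8 genes. The Runx letters occur in 14.05% of the 32851 windows of the same length in the RefSeq table. The E-box letters stood in the Runx3, Runx1, Tbx21 and Prdm1 windows and in 17.2% of all, while the T-box letters, found in 3.33% of all, were in none of the 13 windows of the 8 genes. A match describes the letters only, and binding was not measured.

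The libraries held 37556330 to 41439998 counts, so that 3 counts were worth 0.0724 to 0.0799 CPM (counts scaled to a fixed library total). Levels are CPM on library sizes scaled by TMM factors, a correction for composition, as mean ± SD with n = 4 per group. Log2 fold changes subtract the control from the edited group and carry a standard error (SE). Adjusted p-values come from edgeR's quasi-likelihood test (two-sided, Benjamini-Hochberg over 14970 genes), and a gene was called at an adjusted p under 0.05. The targeted gene, Carm1, averaged 95.9 ± 1.04 CPM in the control and 32.8 ± 0.493 CPM after editing, and Cd8a, a coreceptor chain of the labelled cell type, was at 1573 ± 13.6 and 1973 ± 5.32 CPM.

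All 8 genes differed between the arms, with Runx1, Runx2, Runx3 and Prdm1 higher and Tbx21, Eomes, Zeb2 and Cbfb lower in the Carm1-edited libraries. Such calls were common in these libraries: 87.7% of the tested genes were called, 44.5% higher and 43.2% lower, and the groups were fully apart for 83.4%. Prdm1 and Runx2 were higher by at least 2-fold, as were 20.5% of tested genes, and Eomes and Zeb2 lower by at least 2-fold, as were 15.2%. Of the called genes, 50.8% were higher on the TMM scale, and upper-quartile factors raised that to 61.0%. The count of 8 of 8 is therefore near the background, and the sizes carry the information. Eomes and Zeb2 moved most. Only 5.25% of tested genes had a larger log2 fold change in either direction than Eomes and 5.80% a larger one than Zeb2, against 60.4% for Tbx21 and 68.5% for Runx1.

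**Figure D1:**
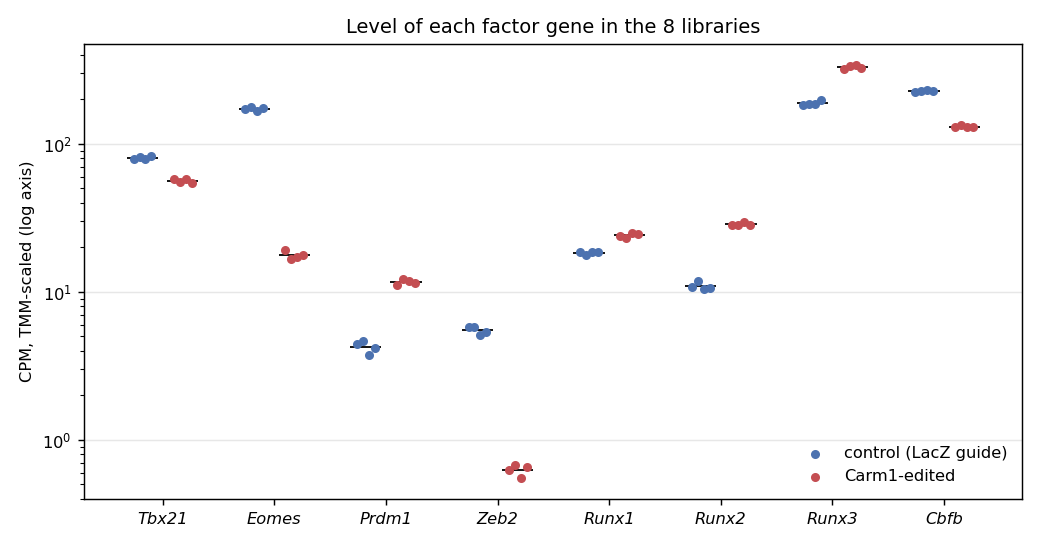
CPM (TMM-scaled, log axis) of the 8 factor genes in the 4 control (blue) and 4 Carm1-edited (red) libraries, 1 point per library and a bar at each group's mean. For every gene the groups are apart, with the widest gaps at Eomes (172.5 against 17.7 CPM) and Zeb2 (5.52 against 0.624 CPM).

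The T-box genes fell by very different amounts. Eomes (ENSMUSG00000032446, chromosome 9, 118478212 to 118486132, plus strand), which encodes the T-box factor of memory and interleukin-15-responsive cytotoxic cells, was at 172.1, 176.8, 166.1 and 175.2 CPM in control replicates 1 to 4 and at 19.2, 16.7, 17.3 and 17.7 CPM in Carm1-edited replicates 1 to 4. All edited libraries lay far below all control libraries, and the log2 fold change was -3.28 ± 0.033 (adjusted p = 2.0e-44), a 9.73-fold fall. Tbx21 (ENSMUSG00000001444, chromosome 11, 97098071 to 97115331, minus strand), which encodes T-bet, the T-box factor of effector cells, was at 78.7, 81.8, 78.8 and 83.1 CPM in the control and at 57.8, 55.3, 57.8 and 54.5 CPM in the Carm1-edited libraries. Its groups did not overlap either, but the fall was 1.43-fold (log2 fold change -0.52 ± 0.028, adjusted p = 1.9e-20). With upper-quartile factors the Tbx21 log2 fold change was -0.30, and Tbx21 was not called against a 1.5-fold change (adjusted p = 1).

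Because the genes differ in length, their levels were set against each other as RPKM (CPM per kilobase of annotated exon). Tbx21 was at 32.4 ± 0.894 RPKM and Eomes at 41.5 ± 1.13 RPKM in the control, against 22.6 ± 0.689 and 4.26 ± 0.257 RPKM in the Carm1-edited libraries. Tbx21 thus made up 43.8% ± 0.450 of the summed T-box RPKM of the pair in the control and 84.2% ± 0.690 of it after editing. By library the share was 43.3%, 43.6%, 44.2% and 44.2% in the control and 83.4%, 84.7%, 84.8% and 83.7% after editing. The share is a ratio within a library and does not move with library scaling. Its level depends on the division by length: from counts alone it was 31.8% ± 0.396 in the control and 76.1% ± 0.942 after editing. The difference in the RPKM share had p = 0.0286 by exact permutation (two-sided, n = 4 each), the lowest value possible with groups of 4. The adjusted p was 0.0286 over the 5 shares and ratios compared here.

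Of the genes for zinc finger repressors that act in effector cells, Zeb2 fell and Prdm1 rose. Zeb2 (ENSMUSG00000026872, chromosome 2, 44983632 to 45117395, minus strand) was at 5.83, 5.79, 5.10 and 5.38 CPM in the control and at 0.622, 0.673, 0.550 and 0.652 CPM in the Carm1-edited libraries. The groups were well apart in these low counts, 828 over the control and 102 over the edited libraries, with a log2 fold change of -3.14 ± 0.122 (adjusted p = 3.0e-25). The fall was 8.81-fold. Prdm1 (ENSMUSG00000038151, chromosome 10, 44437177 to 44528501, minus strand), the Blimp1 gene, was at 4.434, 4.649, 3.718 and 4.204 CPM in the control and at 11.1, 12.2, 11.8 and 11.5 CPM in the Carm1-edited libraries. Every edited library was above every control library, a 2.73-fold rise (log2 fold change 1.45 ± 0.068, adjusted p = 2.4e-22). Per length both genes stayed low, at 0.774 ± 0.0727 and 2.12 ± 0.0866 RPKM for Prdm1 and at 0.277 ± 0.0174 and 0.0313 ± 0.00270 RPKM for Zeb2.

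Zeb2, Prdm1 and the T-box genes are also known from other blood cells, whose markers moved in the same libraries. In bulk RNA, fewer cells of a type and less RNA per cell cannot be told apart. The counts of markers below stand beside 43.2% of all tested genes called lower and 44.5% called higher. Of the 12 macrophage and monocyte markers, a cell type known to express Zeb2, 8 were tested and 8 fell, with a summed level of 279 to 285 CPM in the control and 83.0 to 89.5 CPM in the edited libraries, mostly Ctss (175 ± 1.26 and 81.1 ± 3.22 CPM), a lysosomal protease gene. Lyz2, the lysozyme gene of myeloid cells, was at 83.1 ± 1.36 and 0.148 ± 0.114 CPM. C1qa and C1qc were too low to be tested, with 11 and 13 counts over the 4 control libraries and none in the 4 edited libraries. Of 8 natural killer cell markers, a cell type known for T-bet and Eomes, 7 were tested and 7 fell, from a summed 15.3 to 16.5 CPM to 3.92 to 4.76 CPM. Among 11 B and plasma cell markers, the latter a cell type known for Prdm1, 7 were tested, 6 rose and 1 fell, from 270 to 275 CPM to 951 to 980 CPM, mostly Ighm, the immunoglobulin mu chain gene (254 ± 2.43 and 925 ± 10.5 CPM). Of 8 neutrophil markers 4 were tested and 4 fell. S100a8, S100a9 and the untested Retnlg were at 0 in the edited libraries, against 151, 179 and 5 counts over the control libraries. Ly6g, also untested, went the other way, with 4 counts over the control and 12 over the edited libraries. Of 8 dendritic cell markers 6 were tested, 3 rose and 3 fell. Their summed level went from 269 to 282 CPM to 107 to 115 CPM, mostly Bst2 (268 ± 4.64 and 99.9 ± 3.67 CPM). Of 8 fibroblast and erythroid markers 6 were tested, 2 rose, 3 fell and 1 did not pass. They summed to 6.82 to 7.78 CPM in the control and 4.59 to 5.29 CPM in the edited libraries. Among them Hbb-bs had 412 and 1 counts in all and Pdgfrb 201 and 530. The part of such cells in the levels of the 8 genes was not tested. Of 7 melanoma markers 2 were tested and rose, while Tyr, Dct, Tyrp1 and Sox10 had no counts in any of the 8 libraries.

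The 3 Runx genes rose while the gene of their partner fell. Runx3 (ENSMUSG00000070691, chromosome 4, 135120652 to 135177990, plus strand), which encodes the Runx factor of cytotoxic T cells, was at 184.7, 187.0, 186.2 and 199.8 CPM in the control and at 319.6, 334.6, 343.7 and 324.4 CPM in the Carm1-edited libraries. The groups did not overlap, and the rise was 1.75-fold (log2 fold change 0.80 ± 0.025, adjusted p = 4.2e-26). Runx2 (ENSMUSG00000039153, chromosome 17, 44495987 to 44814797, minus strand), best known from bone and also used by T cells, was at 10.9, 11.8, 10.5 and 10.6 CPM in the control and at 28.3, 28.2, 29.5 and 28.4 CPM after editing. This was the largest rise of the 3 Runx genes in these libraries, 2.61-fold (log2 fold change 1.38 ± 0.046, adjusted p = 1.1e-27). Runx1 (ENSMUSG00000022952, chromosome 16, 92601466 to 92826149, minus strand), the Runx factor of blood stem cells and developing T cells, was at 18.6, 17.7, 18.6 and 18.5 CPM in the control and at 24.0, 23.2, 24.8 and 24.7 CPM after editing. Its groups were apart by little, a 1.32-fold rise (log2 fold change 0.40 ± 0.042, adjusted p = 2.8e-11). The log2 fold change of Runx1 was 0.61 with upper-quartile factors, and Runx1 was not called against a 1.5-fold change (adjusted p = 1).

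Cbfb (ENSMUSG00000031885, chromosome 8, 105170674 to 105217989, plus strand), the beta subunit that all Runx factors share, was at 223.1, 226.7, 230.1 and 226.6 CPM in the control and at 130.3, 133.7, 129.95 and 129.8 CPM in the Carm1-edited libraries. The edited libraries lay closely together below the control libraries, a 1.73-fold fall (log2 fold change -0.79 ± 0.022, adjusted p = 4.1e-30). Per length, Cbfb RNA stood at 1.60 ± 0.0551 times the summed RPKM of the 3 Runx genes in the control and at 0.528 ± 0.0166 times that sum after editing. The ratio was 1.61, 1.62, 1.65 and 1.53 in the control and 0.542, 0.534, 0.504 and 0.532 in the edited libraries, all above 1 in the control and all below 1 after editing. Where the ratio lies against 1 depends on the division by length. From counts alone it was 1.04 ± 0.0334 in the control, with replicate 4 at 0.990, and 0.342 ± 0.0106 after editing, a difference of -0.695 where the RPKM ratio gave -1.08. For the RPKM ratio the exact permutation test gave p = 0.0286 (n = 4 each, adjusted p = 0.0286 over the 5 measures).

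**Figure D2:**
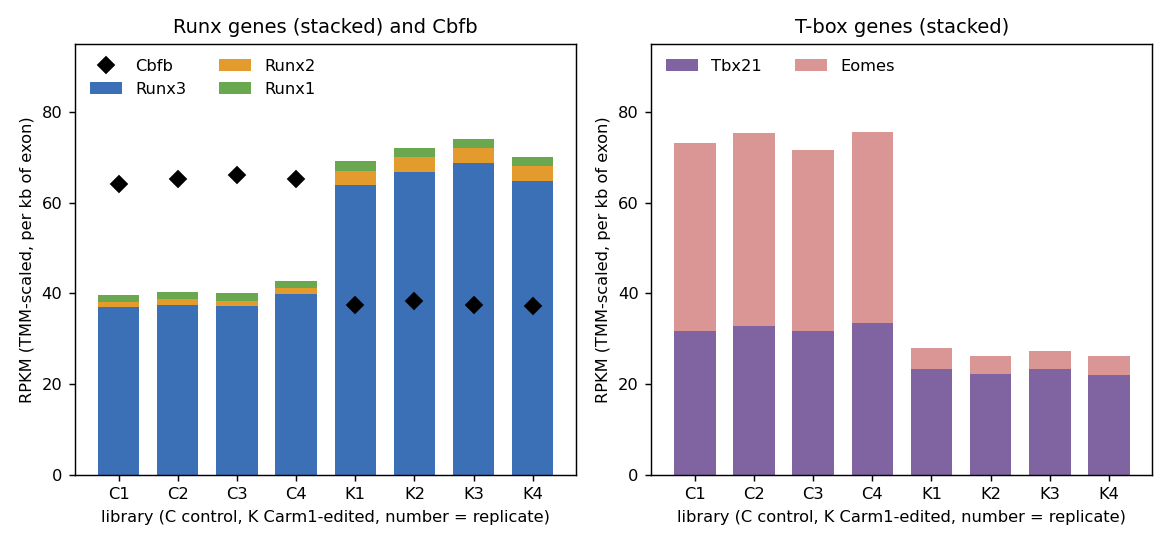
RPKM by library, with C1 to C4 control and K1 to K4 Carm1-edited. Stacked bars on the left are the Runx genes with Cbfb as diamonds, which on this per-length scale lie above the bars in the control and below them after editing, and on the right the T-box genes, where Eomes shrinks from 41.5 to 4.26 RPKM on average.

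Within the Runx family Runx3 dominated in both arms. It held 93.1% ± 0.268 of the summed Runx RPKM in the control and 92.6% ± 0.198 after editing. The shares of the other members moved in opposite directions, Runx2 from 3.05% ± 0.213 to 4.54% ± 0.0879 and Runx1 from 3.82% ± 0.145 to 2.87% ± 0.113, so that their order reversed. For each of these shares the groups were fully apart and the exact permutation test gave p = 0.0286 (n = 4 each, adjusted p = 0.0286). The sizes depend on the division by length: from counts alone the share of Runx1 went from 8.40% ± 0.302 to 6.31% ± 0.237 and that of Runx2 from 5.01% ± 0.341 to 7.46% ± 0.130. The small difference in the Runx3 share was -0.531 percentage points, and it was lost when counts were not divided by gene length (-0.363 points, exact permutation test, adjusted p = 0.257).

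In order of RPKM the control libraries had Cbfb highest (65.1 ± 0.819), then Eomes (41.5), Runx3 (37.9 ± 1.40), Tbx21 (32.4), Runx1 (1.55 ± 0.0360), Runx2 (1.24 ± 0.0658), Prdm1 (0.774) and Zeb2 (0.277). Neighbours in this order did not overlap between libraries, though Eomes and Runx3 nearly met, at 39.97 RPKM in the lowest Eomes and 39.93 RPKM in the highest Runx3 library. In the Carm1-edited libraries Runx3 came first (66.1 ± 2.15), followed by Cbfb (37.6 ± 0.538), Tbx21 (22.6), Eomes (4.26), Runx2 (3.24 ± 0.0677), Prdm1 (2.12), Runx1 (2.05 ± 0.0635) and Zeb2 (0.0313). Prdm1 and Runx1 overlapped there and were not separated by the spread. Both orders depend on the division by length. In CPM the control had Runx3 (189.4) above Eomes (172.5) and Zeb2 (5.52) above Prdm1 (4.25). After editing, Runx2 (28.6 CPM) and Runx1 (24.2 CPM) were above Eomes (17.7 CPM). On the RPKM scale Eomes dropped from above 89.7% of all tested genes to above 48.9%, and Zeb2 from above 15.6% to above 1.92%.

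**Figure D3:**
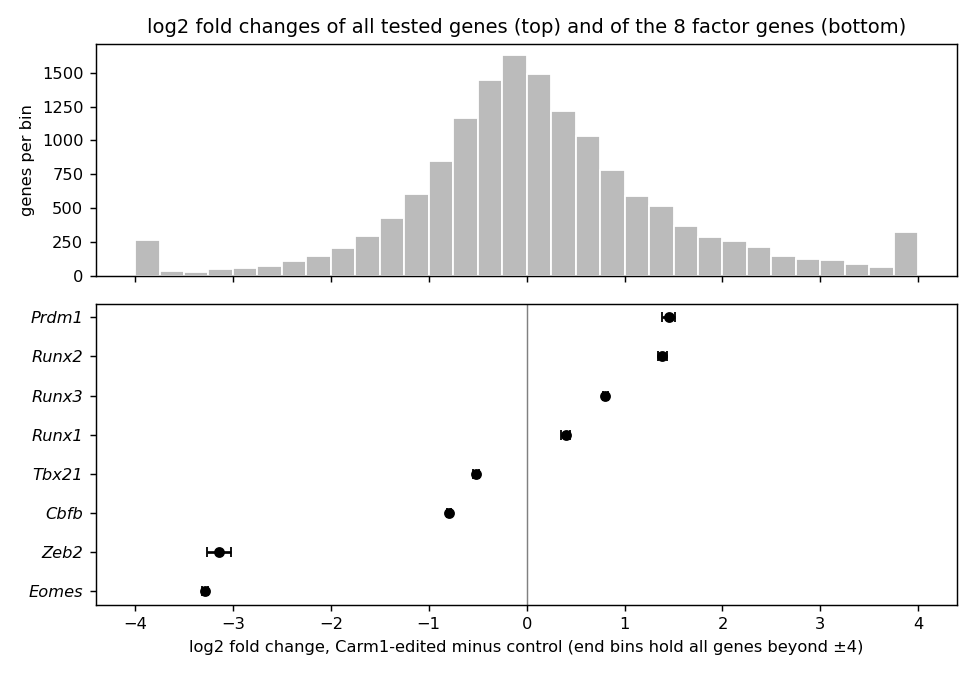
Log2 fold changes (Carm1-edited minus control) of the 14970 tested genes in bins of 0.25 (top) and of the 8 factor genes with their SE as bars (bottom). Eomes at -3.28 and Zeb2 at -3.14 lie in the sparse left tail, while Tbx21 at -0.52 and Runx1 at 0.40 lie in the crowded centre.

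The library kit did not mark strand, so reads of a gene and of an antisense partner cannot be told apart where their exons overlap. Such overlaps were small. Zeb2os, an antisense RNA over 2.34% of the Zeb2 exon length, had 39 counts over the control and 5 over the edited libraries, against 828 and 102 for Zeb2. Runx2os1 covered 5.87% of the Runx2 exon length with 57 and 60 counts, and Gm33460 covered 2.84% of the Eomes exon length with 84 and 92 counts. Gm26626 over Runx1 had 1 and 3 counts, and Gm27761 over Zeb2 had none.

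Effector genes associated with T-bet and Eomes were mostly lower. Of 16 such genes, 11 fell, 4 rose and 1 missed the threshold, where 43.2% of all tested genes were called lower and 44.5% higher. The median log2 fold change was -1.07 beside 0.02 over all tested genes. The list was chosen with earlier results of these data known. Ifng, the interferon gamma gene, fell 251-fold, Gzmb (granzyme B) 6.08-fold, Prf1 (perforin) 2.99-fold and Il2rb, the receptor chain for interleukin-15, from 929 ± 10.7 to 397 ± 4.61 CPM. Cxcr3, a chemokine receptor gene bound by T-bet, and Ccl5, a chemokine gene, went the other way, from 29.5 ± 1.00 to 226.9 ± 5.55 CPM and from 18.9 ± 0.680 to 52.0 ± 1.67 CPM. Of 10 terminal effector genes tied to T-bet with Zeb2, 7 fell and 3 rose, with a median of -1.002. Cx3cr1, a chemokine receptor of terminal effector cells, averaged 8.57 ± 0.479 CPM in the control and 0.0370 ± 0.0247 CPM after editing (1285 and 6 counts in all), and the migration receptor gene S1pr5 at 0.912 ± 0.222 and 0.0245 ± 0.0196 CPM (137 and 4 counts). Klrg1, a receptor of the same cells, fell 22.1-fold, while S1pr1, which guides exit from lymphoid tissue, rose 1.97-fold. The macrophage and natural killer cell markers described above fell in the same libraries, and Cx3cr1 is known from monocytes too. The lists are not separate: Itgam, which fell, is also among the macrophage markers, and Itgax, which rose, among the dendritic cell markers.

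Of 12 genes that Blimp1 is known to repress in lymphocytes, 10 were tested, of which 5 rose and 5 fell; their median was -0.13. This split is near that over all tested genes, 44.5% higher and 43.2% lower. Bcl6, a repressor that opposes Blimp1, rose from 1.78 ± 0.165 to 43.8 ± 1.19 CPM, and Cxcr5, a chemokine receptor of follicle-homing cells, from 3.31 ± 0.185 to 46.6 ± 1.09 CPM. Tcf7, a factor of naive and stem-like cells, and Id3, an inhibitor of E proteins, rose 4.31-fold and 2.16-fold. Bach2 was the remaining gene that rose, by only 1.06-fold and with overlapping groups. With single libraries left out, 4 to 5 genes of the list were called higher. The 5 that fell were named after their values were seen. Fos, a gene of the AP-1 factor, went from 24.3 ± 0.429 to 0.135 ± 0.0425 CPM (3644 and 22 counts in all), a larger change than that of Bcl6, and Myc, a growth factor-induced regulator of metabolism, from 358 ± 9.60 to 124 ± 1.17 CPM. The chemokine receptor genes Ccr6 and Ccr7 fell 4.53-fold and 1.28-fold, and Ciita, the regulator of MHC class II genes, fell 1.88-fold.

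Genes tied to Runx and Cbfb mostly rose, with 10 of 11 tested higher and 1 lower, and a median of 1.13. Over all tested genes 44.5% were called higher and 43.2% lower, and this list too was chosen with earlier results known. They include genes that Runx3 is known to sustain and others that it silences. Itgae, which encodes CD103 of tissue-resident cells, rose from 5.71 ± 0.308 to 57.4 ± 1.251 CPM and Cd8b1, a coreceptor chain gene, 1.75-fold. Zbtb7b, the gene of the helper lineage factor ThPOK that Runx silences in CD8 T cells, rose from 4.82 ± 0.152 to 33.7 ± 1.20 CPM, and Cd4 from 0.168 ± 0.0374 to 0.782 ± 0.150 CPM (25 and 128 counts in all). Both belong to the 4 helper T cell markers, which all rose, from a summed 8.65 to 9.28 CPM to 38.3 to 41.8 CPM; the part of helper cells was not tested. Il7r, for the receptor of interleukin-7, rose 3.32-fold. T cell markers moved as well in these libraries, with 9 of 12 higher and 3 lower, Cd3g (322 ± 5.64 and 678 ± 22.6 CPM) among them.

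**Figure D4:**
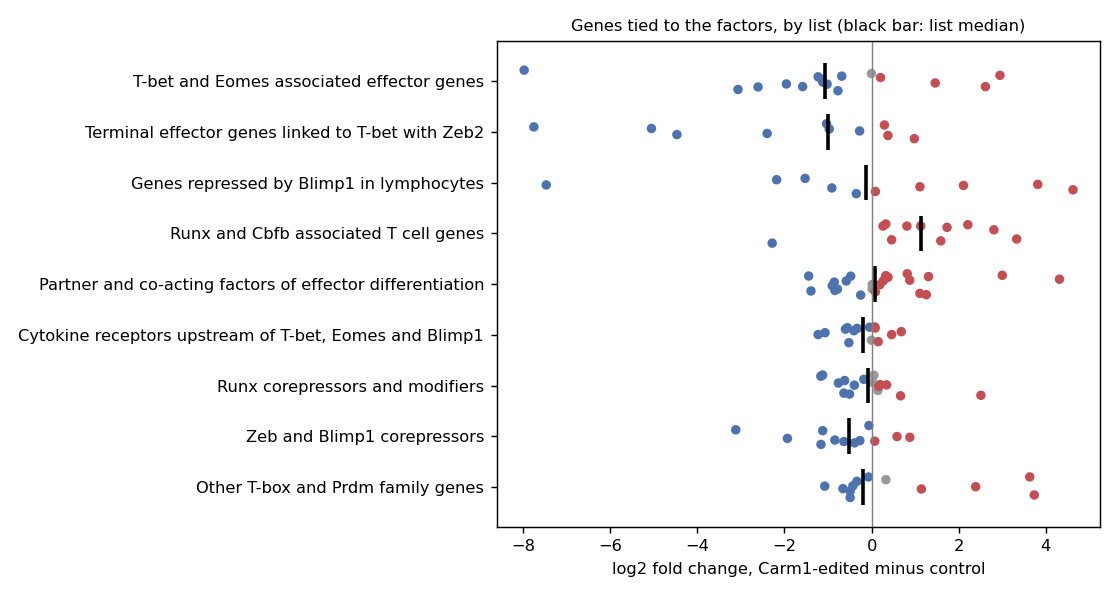
Log2 fold changes of the tested genes in 9 lists tied to the factors, 1 point per gene, red if called higher, blue if called lower and grey if not passed, with a black bar at each list's median. The T-bet and Eomes genes centre at -1.07, the terminal effector genes at -1.002, the Zeb and Blimp1 corepressors at -0.51 and the Runx and Cbfb genes at 1.13, and each list holds genes on either side of 0.

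Among 23 factors that act beside these 8 genes, 12 rose, 9 fell and 2 did not pass, with a median of 0.09. The shares over all tested genes were 44.5% higher and 43.2% lower. Id2, which sustains effector cells, fell 2.62-fold and Bhlhe40, a factor of cytokine production and residency, fell 2.72-fold. Zeb1, the family partner of Zeb2 that is known from memory cells, fell 1.39-fold. In contrast Stat4, which carries interleukin-12 signals to Tbx21, rose 2.47-fold, and Ikzf2, the Helios gene, rose 7.99-fold. Zfp683, the Hobit gene related to Prdm1, averaged 2.25 ± 0.157 and 2.82 ± 0.282 CPM, a log2 fold change of 0.33 ± 0.110 (adjusted p = 0.0060). Bach2, a repressor of effector genes, differed by only 0.09 ± 0.028 on the log2 scale (adjusted p = 0.0038), a call lost without control replicate 3 (adjusted p = 0.061).

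Of 14 receptors that feed into these factors, 8 were lower, 5 higher and 1 did not pass, with a median of -0.19. For this and the next lists, the shares over all tested genes were 43.2% lower and 44.5% higher. Il12rb1, a chain of the interleukin-12 receptor, fell 2.10-fold, and Ifngr1, a chain of the interferon gamma receptor, rose 1.60-fold. Il12rb2, the other interleukin-12 receptor chain, was at 178.8 ± 3.87 and 178.3 ± 9.16 CPM and did not pass (adjusted p = 0.90), but was called higher with upper-quartile factors (log2 fold change 0.21). Corepressors and modifiers of Runx gave 5 higher, 8 lower and 3 not passed of 16 tested (median -0.07), and 8 higher with upper-quartile factors. Cbfa2t3, a corepressor gene, rose from 2.20 ± 0.308 to 12.5 ± 0.614 CPM, while the deacetylase genes Hdac1 and Hdac2 fell 1.55-fold and 2.18-fold. Corepressors of Zeb and Blimp1 gave 3 higher and 9 lower of 12 (median -0.51), with the arginine methyltransferase genes Prmt1 and Prmt5 falling 3.81-fold and 2.24-fold. Of 24 other T-box and Prdm family genes 12 were tested, 4 rose, 7 fell and 1 did not pass. Tbx6, a T-box gene of the embryo, rose from 0.903 ± 0.0926 to 11.2 ± 0.505 CPM, and Prdm2 and Prdm4 fell 1.41-fold and 1.58-fold.

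Genes with the most similar pattern were found by the root mean square difference between log2 CPM values, each centred on the gene's own mean, over the 8 libraries and 10281 genes of at least 2 CPM. The measure is set mostly by the size of the group difference, and is given as a description. Closest to Eomes were Sdf2l1 (0.043), a gene of the endoplasmic reticulum, and Prnp (0.050), the prion protein gene, and closest to Zeb2 were Osm (0.080), a cytokine gene, and Cdca7 (0.083). For Tbx21 they were Pcif1 (0.015) and Slc9a3r1 (0.016), for Prdm1 Tmem35b (0.054) and Zfp516 (0.056), and for Cbfb Nup88 (0.0073) and Slc41a1 (0.011). For Runx1 they were Ptpn7 (0.023) and Add3 (0.026), for Runx2 Tpcn1 (0.033) and Zfp516 (0.035), and for Runx3 Ncoa1 (0.023) and Laptm5 (0.025). A difference under 0.1 was common for genes that moved little, with 1316 genes for Tbx21 and 998 for Runx1, and rare for those that moved far, with 14 for Eomes and 7 for Zeb2.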

How the data were processed

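Whole-number counts per Ensembl gene were used as deposited. Per the submitters' processing notes, the authors obtained gene counts with RSEM on mm10. The labels' protocols describe poly(A) TruSeq libraries with paired reads of 150 bp and RNA of integrity number above 9.5. Aligner, annotation release, strand setting and versions: not given in the sources used here. Whole numbers and column layout are unusual for RSEM. How reads common to paralogs were counted is unknown. Symbols for 48970 of 49315 genes came from a reference table of Ensembl IDs and symbols, and 2 listed symbols were matched through RefSeq synonyms.

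Genes kept by filterByExpr (14970) were scaled with TMM factors (0.938 to 1.07) and tested with robust quasi-likelihood F tests (edgeR 4.0.16, R 4.3.3). The SE is the log2 fold change divided by the square root of F. RPKM used the exon lengths in the files, which merge the exons of all annotated isoforms. Shares were compared by exact permutation tests (scipy 1.17.1). Library pairs within a group differed by a chi-square of 1.45 to 13.5 per degree of freedom, above sampling noise. Each library was counted separately, but this check cannot show that technical replicates are independent. The edgeR step was tested on simulated data. Members and gene lists were chosen with earlier results of these data known. Besides the 8 factors, the text names genes from a fixed panel, up to 3 per list with the smallest adjusted p, abundant markers of other cell types, antisense genes and the 2 nearest patterns per factor. Markers without counts, Ly6g, Itgam and Itgax were named after their values were seen. So were 5 genes of the Blimp1 list that fell (Fos, Myc, Ccr6, Ccr7, Ciita). Alternatives were other scalings, filters and tests (DESeq2 1.42.0, limma-voom 3.58.1), a replicate block, mitochondrially encoded genes left out and each library left out.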

Additional observations from a re-analysis of the deposited data

Results flagged for a closer look

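Of 158 groups of 4 libraries examined, 6 (3.80%) held a library whose gap to its nearest neighbour was above Dixon's 95% limit. Chance gives about 1 in 20. Runx1 in control replicate 2 stood at 17.7 CPM, below 18.5 to 18.6 CPM in the others. Runx3 in control replicate 4 was at 199.8 CPM, above 184.7 to 187.0 CPM. Cbfb in Carm1-edited replicate 2 was at 133.7 CPM, above 129.8 to 130.3 CPM. Cx3cr1 had 0 CPM in Carm1-edited replicate 1, where the other edited libraries were at 0.0481 to 0.0501 CPM. These values rest on 6 counts in all and lie under the level of 3 counts given above. Prdm4 in Carm1-edited replicate 3 was at 30.8 CPM, above 28.4 to 28.7 CPM. Pmel, a pigment cell gene that rose from 3.43 ± 0.147 to 12.7 ± 0.563 CPM, was at 11.8 CPM in Carm1-edited replicate 2, below 12.89 to 12.998 CPM. In each case the library lay on the same side of all libraries of the other group as the rest of its own group.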

How the results depend on the processing

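The 8 factors gave 143 values under 18 alternatives, and 141 kept both direction and call. The exceptions were Tbx21 (-0.52) and Runx1 (0.40) against a 1.5-fold change. Zeb2 could not be fitted with the filter of 5 CPM in 4 libraries. Log2 fold changes ran from -3.33 to -3.07 for Eomes, -3.19 to -2.92 for Zeb2, -0.82 to -0.58 for Cbfb and 0.78 to 1.02 for Runx3. The all-gene median shifted by 0.215 with upper-quartile factors and by 0.160 with library totals alone.

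Against a 1.5-fold change 3992 genes were higher and 3444 lower of all tested, where fewer are called by construction. The list counts there were 1 higher for terminal effector genes, 7 higher for partner factors, 1 higher and 2 lower for receptors, 2 higher and 5 lower for Runx corepressors, 1 higher for Zeb and Blimp1 corepressors and 2 lower for other T-box and Prdm genes. With the 5 CPM filter they were 1 higher and 3 lower for terminal effector genes, 3 lower for Blimp1-repressed genes, 0 lower for Runx and Cbfb genes, 8 higher for Runx corepressors and 2 higher for other T-box and Prdm genes. Without a filter 3 receptors were higher. Runx corepressors gave 8 higher with upper-quartile factors and 8 with library totals alone. The cause was not tested where no filter or stricter threshold explains the count.

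The Il12rb2 log2 fold change turned to 0.21 with upper-quartile factors, 0.16 with library totals alone and 0.0893 with the 5 CPM filter, and ran from -0.0282 to 0.0162 with single libraries left out.

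Leaving out each library in turn left all 8 factors called, 4 higher and 4 lower. Exact tests of the 5 within-library measures cannot go under p = 0.0571 with 3 libraries against 4, so none passed there. Their differences ran from -1.01 to -0.907 points (Runx1 share), 1.41 to 1.57 (Runx2 share), -0.613 to -0.400 (Runx3 share), 40.1 to 40.6 (Tbx21 share) and -1.10 to -1.06 (Cbfb ratio). Without division by length the differences were -2.09 points (Runx1 share), 2.45 (Runx2 share), -0.363 (Runx3 share), 44.2 (Tbx21 share) and -0.695 (Cbfb ratio), and all but the Runx3 share kept their call.

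Replicate numbers did not pair the samples (correlations of deviations -0.0848 to -0.0509 for equal numbers). With the replicate number as a block, 6611 genes were higher and 6420 lower, and Eomes was at -3.28, Tbx21 at -0.52 and Runx3 at 0.80.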
